A study of Mus musculus with 2 samples.

Results

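The mouse HOX genes were followed in 2 RNA sequencing libraries of embryonic stem cells, 1 with a hairpin against the long noncoding RNA linc1557 and 1 with a control hairpin. Members were all table entries whose Ensembl identifier carries, in the GENCODE annotation of GRCm38, a protein-coding symbol of the Hoxa, Hoxb, Hoxc or Hoxd series followed by a number. The rule found 39 genes among the 46983 of the table, 11 of the Hoxa cluster, 10 of the Hoxb cluster, 9 of the Hoxc cluster and 9 of the Hoxd cluster. They occupy chr6:52155590-52260880 (Hoxa), chr11:96194316-96368256 (Hoxb), chr15:102921103-103036852 (Hoxc) and chr2:74668310-74765142 (Hoxd). The cells were 46C, a mouse embryonic stem cell line with a green fluorescent protein reporter in the Sox1 gene, kept on feeder cells in serum medium, and the labels describe culture both with and without leukaemia inhibitory factor but do not say which applied to each library. Both groups had received a pLKO.1 lentiviral hairpin and puromycin, after which stably infected clones were picked. The knockdown group and the control group were 1 library each, with 26693282 and 23146210 counts. Any difference between them may therefore be one between clones or cultures, and no value below has a replicate check.

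HOX genes encode homeodomain transcription factors that give cells their position along the head-to-tail axis. Genes of equal number in the different clusters are paralogues. Within a cluster the genes stand in the order in which they are switched on and in which they are used along the body, from group 1 (head side, the 3' end of the cluster) to group 13 (tail side, the 5' end). In embryonic stem cells the clusters are held nearly silent by Polycomb complexes, while retinoic acid, Wnt signals and caudal (CDX) factors switch them on in the embryo. Fibroblasts, including those used as feeders, keep a HOX pattern of their place of origin.

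HOX transcripts were scarce in both libraries. All 39 genes together held 509 counts in the knockdown library and 630 in the control library, which is 0.00191% and 0.00272% of the counts. No member had 0 counts in both. Per length, the median member stood at 0.0826 RPKM (reads per kilobase of gene length, scaled to library size) in the knockdown library against 0.197 in the control library. The highest member reached 1.48 RPKM in the knockdown library (Hoxc12) and 1.24 in the control library (Hoxb9). For comparison, the pluripotency factor Pou5f1 stood at 147 and 134 RPKM, Sox2 at 111 and 109, and Nanog at 108 and 89.8, so markers of the labelled cell type were present at high levels in both libraries. At these depths most single HOX genes rest on a handful of reads, and the counts were therefore also summed by cluster and by paralogue group.

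The HOX genes did not move as a block. Scaled by trimmed-mean (TMM) library sizes, the pooled count was 1.32-fold lower in the knockdown library, with an exact 95% interval of 1.17 to 1.48 that covers counting error only. Behind that pool, groups 2 to 9 were lower and groups 12 and 13 were higher, both blocks marked out after the values were seen. Groups 1 to 4 held 92 counts in the knockdown library against 160 in the control library (1.85-fold lower, 1.42 to 2.41), although the ratio of group 1 alone was above 1 with an interval that held 1. Groups 5 to 8 held 125 and 257 counts (2.18-fold lower, 1.76 to 2.73). Groups 9 to 13 held 292 and 213 counts (1.29-fold higher, 1.08 to 1.55), and this tail-side pool owed its direction to groups 12 and 13, without which it was lower at a ratio of 0.722.

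Across the 13 paralogue groups the lowest ratios were those of groups 2 and 3 and the highest those of groups 12 and 13. Group 2 had 8 and 29 counts (3.85-fold lower, 1.72 to 9.75) and group 3 had 14 and 43 (3.26-fold lower, 1.75 to 6.46). Hoxb2 held 7 and 27 of the group 2 counts. Hoxb3 held 9 and 33 of the group 3 counts, and without it that ratio was 0.471. Groups 4 to 8 lay between 1.94-fold and 2.72-fold lower, each with an interval below 1. Group 9 had 96 and 128 counts (1.42-fold lower, 1.08 to 1.87), and without Hoxb9, which held most of its counts, the ratio was 0.240. Groups 1, 10 and 11 had intervals that held 1. Group 12 had 40 counts in the knockdown library against 8 in the control (4.71-fold higher, 2.17 to 11.6), of which Hoxc12 held 39 and 8. Group 13 had 117 against 29 (3.80-fold higher, 2.51 to 5.92), a ratio that was 1.88 without Hoxc13. Group 7, with a ratio of 0.394, stood at 0.188 without Hoxb7 and at 0.680 without Hoxa7, so its fall rested on Hoxa7.

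**Figure D1:**
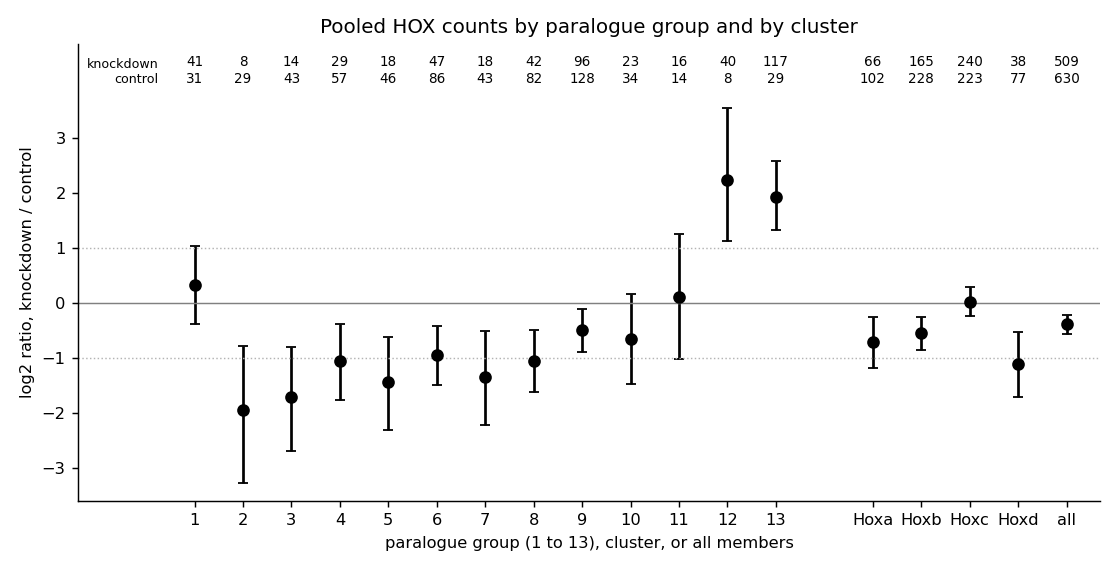
Log2 ratio of TMM-scaled counts, knockdown over control, for each paralogue group, each cluster and all members, with the counts of both libraries above. Points are ratios of 1 library over 1, bars are exact 95% counting intervals and dotted lines mark 2-fold; groups 2 to 9 sit below 0, groups 12 and 13 above it.

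Pooling groups 12 and 13 against the rest, a split chosen after the values were seen, gave 157 counts in the knockdown library against 37 in the control library for the tail-side genes (3.99-fold higher, 2.78 to 5.88). The 33 genes of groups 1 to 11 held 352 and 593 counts (1.79-fold lower, 1.57 to 2.05). Groups 12 and 13 thus supplied 30.8% (26.9 to 35.1, exact interval) of the HOX counts of the knockdown library and 5.87% (4.17 to 8.0) of those of the control library. The ratio of the 2 ratios, which does not depend on the library scaling, was 7.15 (4.83 to 10.8).

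The clusters differed in their sums. Hoxd was lowest, with 38 counts in the knockdown library against 77 in the control library (2.15-fold lower, 1.44 to 3.26). Hoxa had 66 and 102 counts (1.64-fold lower, 1.19 to 2.27), and Hoxb had 165 and 228 (1.47-fold lower, 1.20 to 1.80). Each without its member with the most counts, Hoxa stood at a ratio of 0.391 and Hoxd at 0.444, so their order is not settled. Hoxc was level as a sum, with 240 and 223 counts (1.01-fold higher, 0.841 to 1.22). That balance was made of 2 opposite parts. Hoxc12 and Hoxc13 together had 128 counts against 23 (5.24-fold higher, 3.34 to 8.56), and Hoxc4 to Hoxc11 had 112 against 200 (1.90-fold lower, 1.5 to 2.41), so that the ratio of ratios inside the cluster was 9.94 (5.90 to 17.1). Without Hoxc13 alone the Hoxc ratio was 0.683. In Hoxb the ratio of ratios for Hoxb13 against Hoxb1 to Hoxb9 was 27.8 (4.27 to 1163), resting on 1 control read. In Hoxa and Hoxd the intervals of this quantity held 1, at 1.57 (0.203 to 12.1) for Hoxa13 and 1.79 (0.55 to 5.59) for Hoxd12 and Hoxd13. The split at group 12 was chosen after the values were seen, so the Hoxc and Hoxb values describe it and carry no support.

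Single genes were called when their ratio was at least 2-fold and the counting interval excluded 1. Of the 39 members, 12 reached 1 CPM (counts scaled to library size) in either library and entered this comparison. Among them 7 were lower in the knockdown library (Hoxa7, Hoxb2, Hoxb3, Hoxb6, Hoxc5, Hoxc8 and Hoxc9), 2 were higher (Hoxc12 and Hoxc13) and 3 were not called, Hoxb9 and Hoxc6 among them. Of all 15850 genes that entered, 9.48% were called lower and 4.68% higher. A gene this scarce enters mostly through the library in which it is high, so the counts of called members describe the genes and carry no support. The entry threshold fell between Hoxa7, which entered with 25 control counts (1.04 CPM), and Hoxd8, which stayed out with 24 (0.995 CPM). With entry at 10 counts over both libraries, 28 members entered, of which 11 were called lower, 3 higher and 14 neither, beside 10% lower and 5.01% higher among 20027 genes. The median log2 ratio was -0.93 over these 28 members and 0.0014 over those 20027 genes. With no filter the members again gave 11 lower and 3 higher, beside 9.55% and 4.73% of 21924 genes. No member reached 5 CPM, a level at which 6.31% of 11534 genes were called lower and 2.86% higher. The shares over all genes thus include many genes more abundant than any member, which were called less often, and are not those of equally scarce genes. At 4-fold, 2 members were lower (Hoxb2 and Hoxa7) and 2 higher (Hoxc12 and Hoxc13), beside 2.45% and 0.959% of the 15850 genes.

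**Figure D2:**
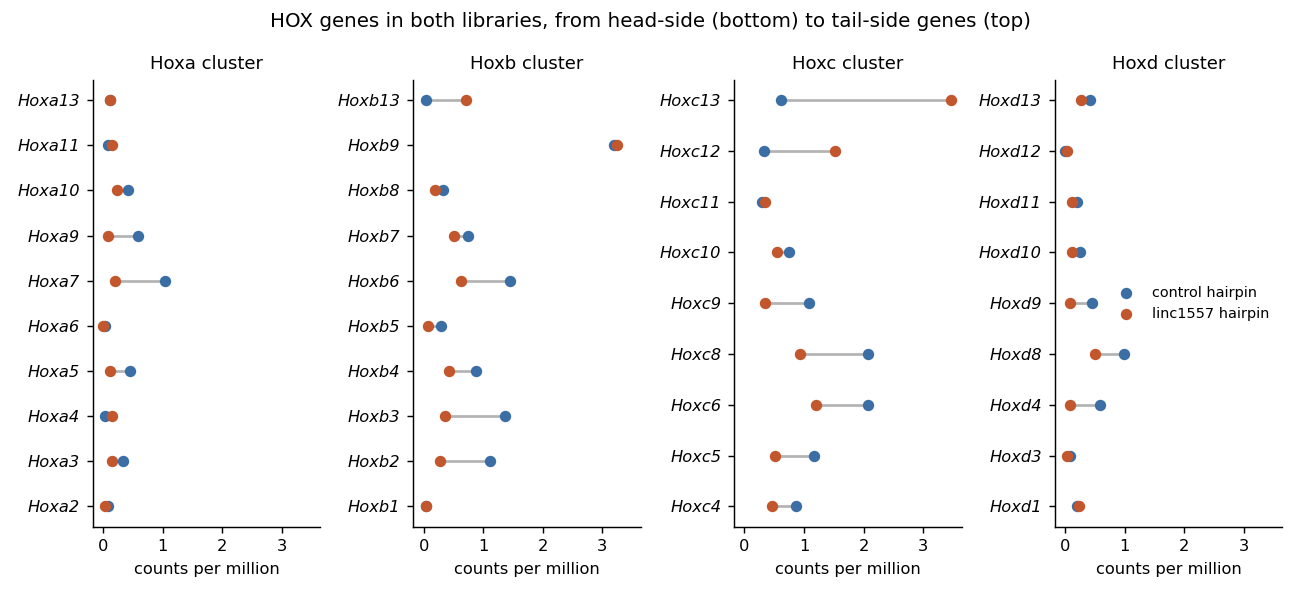
TMM-scaled CPM of the HOX genes reported here in the knockdown library (orange) and the control library (blue), 1 panel per cluster, ordered from the head side at the bottom to the tail side at the top. Hoxb9 lies near 3.2 CPM in both libraries, while Hoxc13, Hoxc12 and Hoxb13 lie to the right in the knockdown library and most middle-group genes to the left.

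The tail-side genes Hoxc13, Hoxc12 and Hoxb13 were the 3 members called higher. Hoxc13, a regulator of hair and nail keratin genes (chr15:102921103-102928814), had 89 counts in the knockdown library and 15 in the control library, which is 3.47 against 0.622 CPM (5.58-fold higher, 3.21 to 10.4). Hoxc12, its neighbour in the cluster (chr15:102936757-102938609), had 39 counts against 8 (4.59-fold higher, 2.11 to 11.4). Per length these were the 1st- and 2nd-ranked HOX genes of the knockdown library, Hoxc12 at 1.48 RPKM and Hoxc13 at 1.41, while they ranked 15th and 17th of the 39 in the control library at 0.322 and 0.253 RPKM. Hoxb13, known from prostate and tail development (chr11:96194316-96197447), had 18 counts against 1 (ratio 16.9, 2.67 to 706). It stayed under 1 CPM in both libraries, and the single control read leaves its ratio very wide. Hoxb13 lies apart from the rest of its cluster, beyond Hoxb9. The other members of groups 12 and 13 did not share this pattern: Hoxd13, a digit-patterning gene, had 7 counts against 10 (1.52-fold lower, with an interval that held 1), Hoxa13 had 3 in each library, and Hoxd12 had 1 against 0.

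Among the Hoxb genes of the head side, Hoxb2, which patterns the hindbrain segment of the facial nerve, had 7 counts in the knockdown library against 27 in the control library (4.10-fold lower, 1.74 to 11.1). Hoxb3, active in hindbrain and pharyngeal arches, had 9 and 33 (3.90-fold lower, 1.82 to 9.26). Both share exons with the antisense transcript Hoxb3os, which covers 52.9% of the Hoxb3 length and itself had 2 and 5 counts. Since neither the strand protocol nor the strand setting of the counting is given in the sources used here, reads of a gene and its antisense partner cannot be told apart. Hoxb4, known for expanding blood stem cells, had 11 and 21 counts (2.03-fold lower, 0.935 to 4.66) and was not called. Hoxb6, a trunk gene, had 16 and 35 counts (2.32-fold lower, 1.25 to 4.50) and was called lower. Its neighbours Hoxb7, with 13 and 18 counts, and Hoxb8, with 5 and 8, had ratios below 1 and intervals that held it.

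Hoxb9 was the most abundant HOX gene of the control library and differed by less than counting error. It had 83 counts in the knockdown library against 77 in the control library (1.01-fold higher, 0.735 to 1.40), or 1.26 and 1.24 RPKM. In the control library Hoxc6 followed at 0.861 RPKM, then Hoxb6 at 0.739 and Hoxc8 at 0.732. In the knockdown library Hoxb9 followed Hoxc12 and Hoxc13, and Hoxc6 stood at 0.502 RPKM. Left out of the Hoxb pool, Hoxb9 moved the ratio of that cluster from 0.681 to 0.511.

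The Hoxc genes from group 4 to group 11 leaned the other way from Hoxc12 and Hoxc13. Hoxc8, which patterns thoracic vertebrae and motor neurons, had 24 counts in the knockdown library against 50 in the control library (2.21-fold lower, 1.33 to 3.77). Hoxc9, a thoracic motor neuron determinant, had 9 and 26 (3.07-fold lower, 1.39 to 7.44). Hoxc5 had 13 and 28 (2.29-fold lower, 1.15 to 4.81). These 3 were called. Hoxc6, a gene of the forelimb-level spinal cord, had 31 and 50 counts and an interval below 1, but its 1.71-fold difference (1.07 to 2.78) missed the fold threshold. Hoxc4 had 12 and 21 counts (1.86-fold lower) and Hoxc10, a hindlimb-level gene, 14 and 18 (1.37-fold lower), both with intervals that held 1. Hoxc11, next to Hoxc12, had 9 and 7 counts (1.21-fold higher, 0.401 to 3.82), between the lower genes and the higher ones in place and in ratio. Hoxc5 and Hoxc10 share 166 annotated exon bases.

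**Figure D3:**
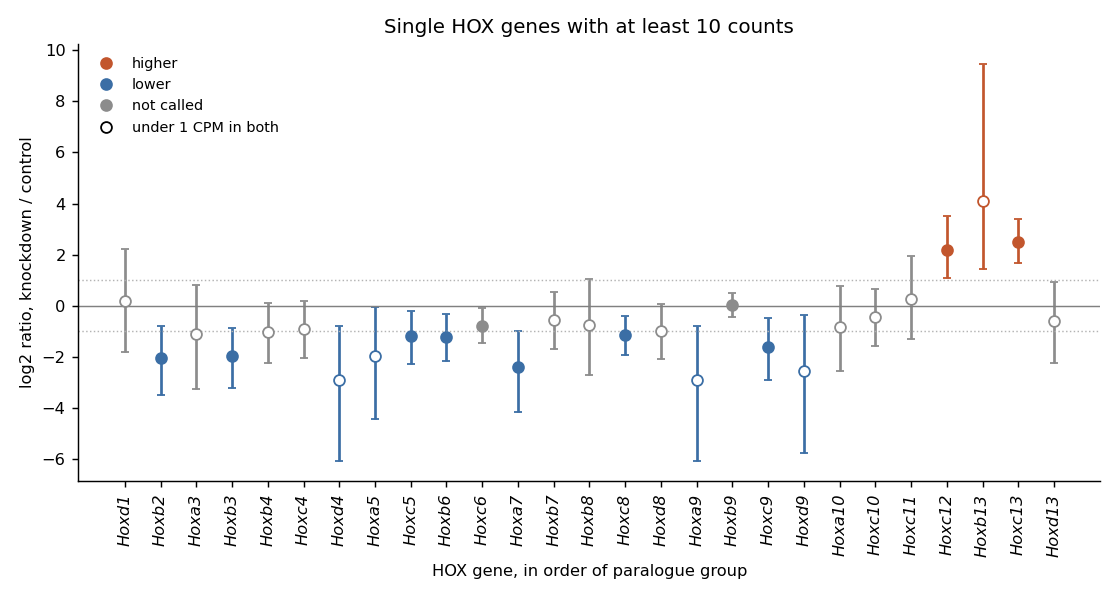
Log2 ratio, knockdown over control, of the reported HOX genes with at least 10 counts, in order of paralogue group, with exact 95% counting intervals. Blue genes were called lower, orange genes higher and grey genes neither, and open points stayed under 1 CPM in both libraries; the 3 orange genes are Hoxc12, Hoxb13 and Hoxc13.

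The Hoxa genes of the middle groups were low in the knockdown library. Hoxa7, a trunk gene also known from leukaemia, had 5 counts with the linc1557 hairpin and 25 with the control hairpin (5.31-fold lower, 2.00 to 17.8), the lowest ratio among the members that reached 1 CPM. Hoxa9, the HOX gene best known from leukaemia, had 2 and 14 (7.44-fold lower, 1.71 to 67.4), and Hoxa5, needed for lung development, had 3 and 11 (3.90-fold lower, 1.03 to 21.7). Both stayed under 1 CPM and were called at the 10-count entry. Hoxa3 had 4 and 8 counts and Hoxa10 had 6 and 10, with intervals that held 1. Hoxa5 to Hoxa7 together held 8 counts against 37 (4.91-fold lower, 2.25 to 12.2). Hoxa7 shares 20.4% of its length with the antisense gene Hoxaas3, which had 2 and 0 counts.

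No Hoxd gene reached 1 CPM. Hoxd4 had 2 counts in the knockdown library against 14 in the control library (7.44-fold lower, 1.71 to 67.4), and Hoxd9, a limb and trunk gene, had 2 and 11 (5.84-fold lower, 1.28 to 54.3). Both were called at the 10-count entry, on 2 knockdown reads each. Hoxd8 had 13 and 24 counts (1.96-fold lower, 0.960 to 4.19) and Hoxd1 had 6 and 5. Hoxd4 shares 39.1% of its length with the read-through gene model Gm28230, which also covers 53.1% of Hoxd3. Gm28230, named after its values were seen, had 1 and 11 counts (11.7-fold lower, 1.70 to 503). Reads in the shared exons cannot be assigned to Hoxd4 or to Gm28230.

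The 11 members with fewer than 10 counts were Hoxa2, Hoxa4, Hoxa6, Hoxa11, Hoxa13, Hoxb1, Hoxb5, Hoxd3, Hoxd10, Hoxd11 and Hoxd12. They had 0 to 4 counts each in the knockdown and 0 to 7 in the control library. Summed, they gave 23 and 30 counts (1.39-fold lower, 0.778 to 2.50), which at this depth is not a detectable difference. Over all 39 members, 24 had a ratio below 1 and 9 above it, while 6 had at most 3 counts in either library and were given none. In 16 members an annotated exon overlaps an exon of another gene of the table. Without these the pooled HOX ratio moved from 0.760 to 0.914, above the full pool's interval of 0.675 to 0.856. No interval was computed for the smaller pool, so a difference from 1 is not shown there. The 16 include Hoxa7, Hoxa9, Hoxb2, Hoxb3, Hoxc5 and Hoxd4 of the genes called lower, but not Hoxa5, Hoxb6, Hoxc8, Hoxc9 and Hoxd9.

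Noncoding genes inside the clusters were higher as a sum. The 42 of them held 253 counts in the knockdown library against 155 in the control library (1.54-fold higher, 1.25 to 1.89), most of them from Gm53, a noncoding gene between Hoxb9 and Hoxb13. Gm53 had 189 and 110 counts (1.62-fold higher, 1.27 to 2.06) and was the only one to reach 1 CPM. Gm28011, next to Hoxc11, had 11 and 5 counts, with an interval that held 1. Mir196a-1, a microRNA gene between Hoxb9 and Hoxb13, had 9 counts against 1 (ratio 8.47, 1.17 to 371), and Hotair, the noncoding gene of the Hoxc cluster known for acting on Hoxd, had 0 and 1. Libraries of this kind do not capture the mature microRNA, so the counts at its locus do not measure it.

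The miR-196 family is printed here because its genes lie beside HOX genes of group 9 and because it is known to act on middle HOX transcripts. The mature arms from RefSeq (GRCm38.p6) share the seed, bases 2 to 8, in capitals. The miR-196a-5p arm of Mir196a-1 lies at chr11:96265187-96265208 and is the same as that of Mir196a-2, which had 0 counts in both libraries, as had Mir196b inside Hoxa9. The long-known target site in the Hoxb8 transcript is complementary to 21 of the 22 bases of miR-196a, shown in capitals. The 1 lower-case base is a G that lies opposite a U inside the seed, a G:U pair. Hoxb8 itself had only the 5 and 8 counts given above, so these libraries do not resolve its level.
miR-196a-5p: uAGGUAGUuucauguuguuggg
miR-196b-5p: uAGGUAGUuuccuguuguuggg
Hoxb8 site: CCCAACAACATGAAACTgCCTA

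A wide difference beside the Hoxa cluster was in a gene outside the HOX set. Halr1 (chr6:52102949-52113684) is a long noncoding RNA gene on the head side of the Hoxa cluster, known to act on the induction of Hoxa genes. It was singled out after its values were seen. It had 960 counts in the knockdown library against 141 in the control library, or 38.2 and 5.96 RPKM (6.41-fold higher, 5.36 to 7.70). That is more counts than all 39 HOX genes together in the knockdown library.

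Of the 24 protein-coding genes that flank the clusters, 3 on each side, 21 reached 1 CPM, of which 2 were lower and 1 higher, shares close to the 9.48% and 4.68% of all 15850 genes. Skap2, an adaptor protein gene beyond Halr1, was higher, with 1820 counts against 766 (2.24-fold, 2.05 to 2.44). Calcoco2, an autophagy receptor gene, was lower with 79 against 162 (2.18-fold, 1.65 to 2.89), and so was the tubulin-modifying enzyme gene Ttll6 with 34 against 79 (2.47-fold, 1.63 to 3.81), both at the tail end of Hoxb next to Hoxb13. The other 18 were not called. Over the 21 genes the median log2 ratio was 0.24, beside 0.02 over all 15850 genes. Evx1, a homeobox gene at the tail end of Hoxa, had 0 counts against 7. It was 2.48-fold lower with a floor of 3 counts in the knockdown library, and the counting interval began at 1.53-fold.

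**Figure D4:**
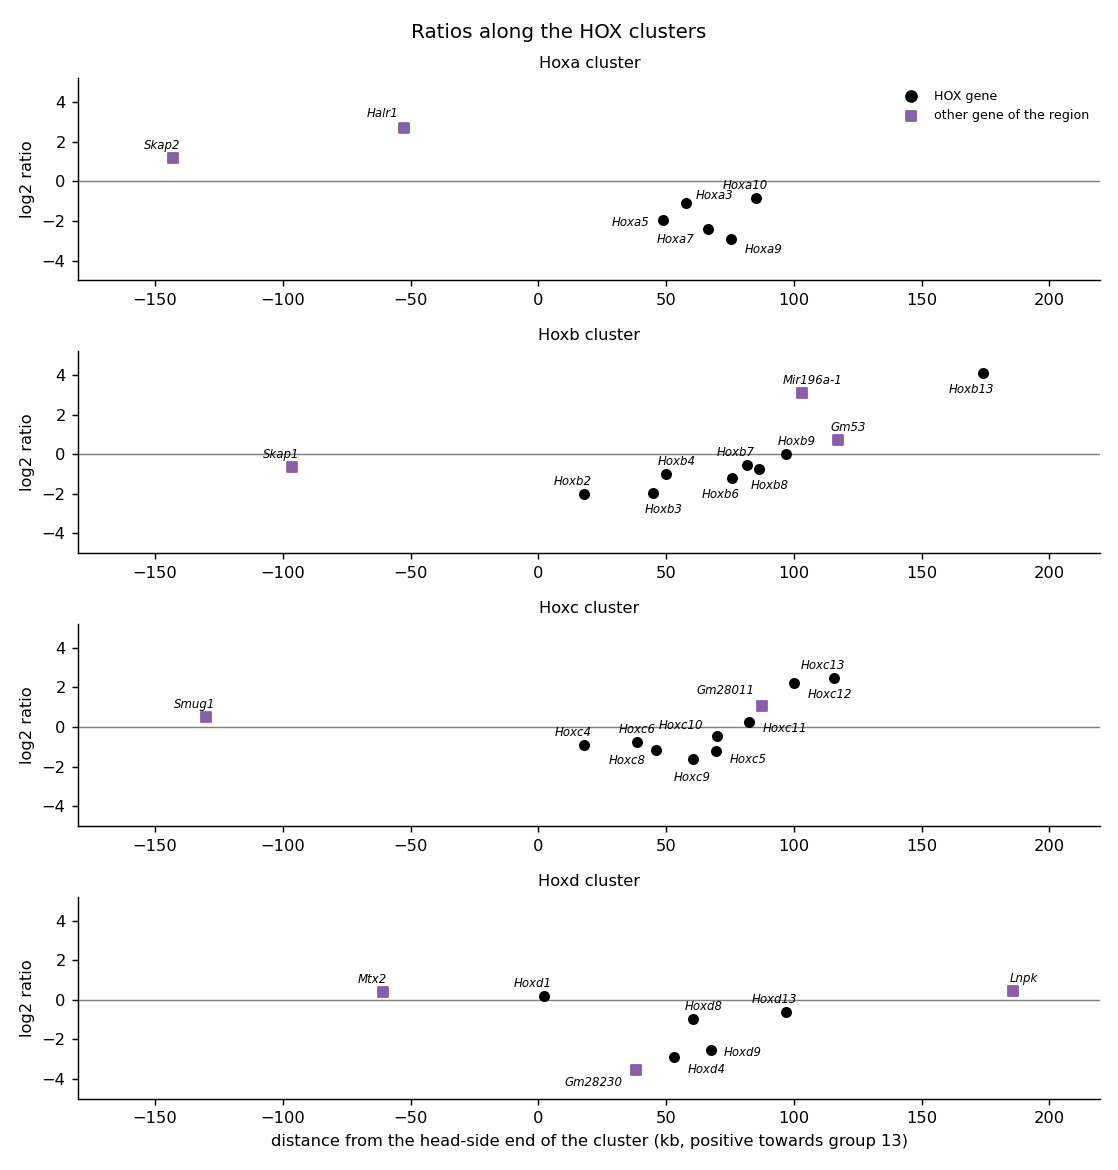
Log2 ratio, knockdown over control, of genes with at least 10 counts against the distance of their annotated start from the head-side end of the cluster, in kb. Black circles are HOX genes and purple squares other genes of the region; Hoxb13, Hoxc12 and Hoxc13 stand above 0 at the right, and Halr1 above 0 to the left of the Hoxa cluster. Hoxc5 sits beside Hoxc10 because its longest annotated model starts there.

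HOX proteins bind DNA together with TALE homeodomain partners of the PBX, MEIS and PKNOX families. All 11 TALE genes of the list reached 1 CPM, and 3 were lower and 0 higher, beside 9.48% and 4.68% of all genes. Meis3 had 31 counts in the knockdown library against 107 in the control library (3.67-fold lower, 2.44 to 5.66), Pknox2 had 11 and 26 (2.51-fold, 1.20 to 5.63), and Meis2 had 41 and 92 (2.38-fold, 1.63 to 3.53). Pknox2 was under 1 CPM in the knockdown library and entered only through the control library. The median log2 ratio of the 11 was -0.48, beside 0.02 over all genes. The other 8 partners, the 4 PBX genes among them, were not called.

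Several signals and factors that act on HOX genes in the embryo were far lower in the knockdown library. Of 23 genes of the caudal, retinoic acid and axial signal list, 15 reached 1 CPM, of which 5 were lower and 0 higher, with a median log2 ratio of -0.20, beside 9.48%, 4.68% and 0.02 over all genes. T, the Brachyury gene of the primitive streak and tail bud, had 16 counts against 1062, and Wnt3, a streak-inducing ligand, 3 against 115. Cyp26a1, which degrades retinoic acid in the tail bud, had 1 against 389, and Cdx2, a caudal factor that binds HOX clusters, 2 against 31. The remaining lower gene was Egr2, a hindbrain regulator of Hoxa2 and Hoxb2, with 24 against 124 (5.49-fold lower, 3.52 to 8.89). All 5 were under 1 CPM in the knockdown library and entered only through the control library. Their number therefore describes the genes and carries no support. Cdx1, the caudal relative of Cdx2, went the other way with 43 against 23 (1.76-fold higher, 1.04 to 3.06) and was not called.

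Polycomb and Trithorax genes, the repressors and activators that hold HOX states, differed little as a list. All 27 reached 1 CPM, 3 were lower and 0 higher, and the median log2 ratio was -0.10. That share of lower genes is near the 9.48% of all genes. Among the lower ones were the chromodomain gene Cbx8, with 7 counts against 29 (4.4-fold, 1.89 to 11.9), and Phf19, a PRC2 partner, with 116 against 233 (2.13-fold, 1.70 to 2.69). Cbx8 reached 1 CPM in the control library only. Ezh2, the PRC2 methyltransferase, had 2637 against 1705 counts and Kmt2a, the founding Trithorax-side HOX activator, 2638 against 2702, and neither was called.

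The libraries also differed in a list of fibroblast markers, chosen because the cells were kept on feeders. These markers moved in the direction of HOX groups 2 to 9. Of 30 fibroblast markers 29 reached 1 CPM, 18 were lower in the knockdown library and 0 higher, and their median log2 ratio was -1.29. Over all genes 9.48% were lower and 4.68% higher, with a median of 0.02. The summed level was 1901 CPM in the knockdown library against 3486 in the control library (1.83-fold lower, 1.81 to 1.85), and Tcf21 was at 0 in both. Timp3 was 6.34-fold lower, Col6a3 5.41-fold, Col3a1 4.48-fold and Col6a2 4.4-fold, whereas Fn1, which supplied most of the knockdown sum, had 27103 counts against 28904 and was not called. In bulk RNA, fewer cells of a type and less RNA per cell cannot be told apart. Nor can it be said whether feeder cells or other cells of the culture made these transcripts. The part of the feeder cells in the HOX values was not tested.

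HOX counts were also expressed per 1000 fibroblast marker counts. Dividing by the same marker sums leaves the ratio between HOX pools as given above. Groups 1 to 11 gave 7.23 HOX counts per 1000 marker counts in the knockdown library against 7.05 in the control library, a ratio of 1.02 (0.895 to 1.17). Groups 12 and 13 gave 3.22 and 0.440 per 1000, a ratio of 7.32 (5.09 to 10.8). With Fn1 left out of the marker sum, a choice made after the values were seen, the ratio for groups 1 to 11 was 1.52 (1.32 to 1.73) and that for groups 12 and 13 was 10.8 (7.53 to 16).

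Markers of posterior neural and neuromesodermal cells, which switch on HOX genes in the embryo, were mixed. Of 12 genes 8 reached 1 CPM, 4 were lower (T, Cdx2, Irx3 and Nkx1-2) and 2 higher (Sox1 and Tbx6), beside 9.48% and 4.68% of all genes. Each called gene was under 1 CPM in the library where it was lower, so these numbers carry no support. With total-count scaling Tbx6 was no longer called and 1 gene was higher. Sox1 had 57 counts against 7, and Tbx6, of the presomitic mesoderm, 43 against 20. Of the 10 embryonic stem cell markers 0 were called, with a median log2 ratio of 0.37. Their summed level was 3131 CPM in the knockdown library against 2286 in the control library (1.37-fold higher, 1.35 to 1.38). At a 1.5-fold threshold 2 of the 10 were higher, beside 1817 of all 15850 genes. The part of these differences in the HOX values was likewise not tested.

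**Figure D5:**
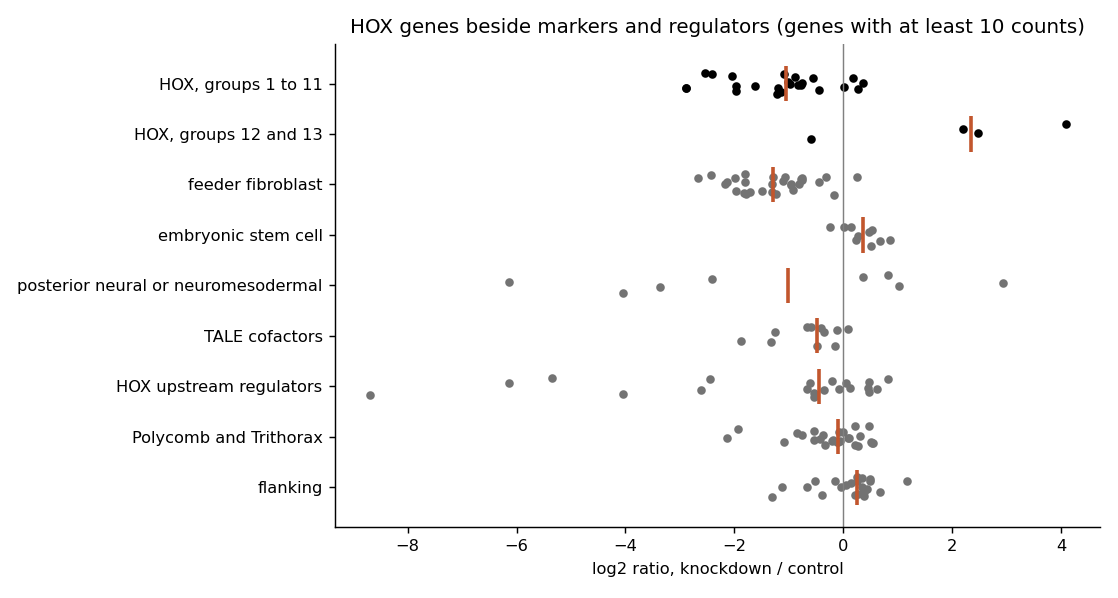
Log2 ratios, knockdown over control, of single genes with at least 10 counts in the HOX groups 1 to 11, the HOX groups 12 and 13 and each marker or regulator list; 1 point is 1 gene, vertical position within a row is random and the orange line is the median. HOX groups 1 to 11 and the fibroblast markers lie mostly below 0, while 3 of the 4 plotted genes of groups 12 and 13 lie above it.

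RefSeq gave promoter entries for 22 of the 39 members, 24 in all, and the 250 bases before the start were searched on both strands. Hoxc12, Hoxc13 and Hoxb13 were among those without an entry. The letters TTTATG, a core read by CDX factors, were found in 5 of the 24 (20.8%) and in 10.8% of all 32851 promoters. AGGTCA, the retinoic acid receptor half-site, was in 6 (25%) and in 14% of all, and the HOX-PBX letters TGATTNAT were in 2 (8.33%) and in 2.82% of all. The HOX promoters held a median of 12.5 CG dinucleotides, from 2 to 35, against 6 over all promoters. A match is a run of letters and not a binding site. Shown are Hoxd4 (chr2:74721728-74721977, plus strand), which had 1 match to each of the first 2 motifs and 2 counts against 14, Hoxb8 (chr11:96281655-96281904, plus strand), with 2 TTTATG matches and 5 counts against 8, and Halr1 (chr6:52102699-52102948, plus strand), the noncoding neighbour described above, with 0 matches. Capitals mark the matches, read on either strand, in GRCm38.p6.
Hoxd4 promoter: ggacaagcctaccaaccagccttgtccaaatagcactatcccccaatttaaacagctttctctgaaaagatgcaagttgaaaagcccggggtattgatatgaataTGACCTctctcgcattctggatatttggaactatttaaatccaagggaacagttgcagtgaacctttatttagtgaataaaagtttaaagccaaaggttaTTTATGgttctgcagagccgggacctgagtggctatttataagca
Hoxb8 promoter: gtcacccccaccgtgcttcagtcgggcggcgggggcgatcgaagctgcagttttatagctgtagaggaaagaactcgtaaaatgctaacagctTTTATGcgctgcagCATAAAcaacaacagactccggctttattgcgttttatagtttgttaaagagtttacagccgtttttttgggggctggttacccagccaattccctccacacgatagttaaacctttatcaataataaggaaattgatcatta
Halr1 promoter: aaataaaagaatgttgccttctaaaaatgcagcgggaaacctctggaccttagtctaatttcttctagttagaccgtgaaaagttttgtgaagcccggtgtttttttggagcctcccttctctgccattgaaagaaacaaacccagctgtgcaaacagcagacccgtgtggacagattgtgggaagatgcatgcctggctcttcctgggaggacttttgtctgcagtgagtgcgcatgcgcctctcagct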

How the data were processed

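RNA of 2 libraries was sequenced, 1 per group. The deposited table holds raw counts of reads for each gene, and a gene length in bases. Per the submitters' processing notes the authors used Trim Galore, HISAT2, featureCounts and DESeq with mm10 and GRCm38, without versions, and the annotation release and strand settings are not given in these sources. GENCODE symbols matched 46488 of 46983 identifiers. From the counts, library sizes were scaled with edgeR 4.0.16 TMM (factors 0.960 and 1.04) in R 4.3.3, and ratios with exact 95% Clopper-Pearson intervals were computed in Python 3.11.15 with scipy 1.17.1. Where 1 library had 0 counts, 3 counts took the place of the 0 in the ratio. Genes with at most 3 counts in each library got no ratio. Intervals cover counting error only. Reads carry no molecular identifiers, so copies of the same molecule count as separate reads and the intervals may be too narrow. Because each group was 1 library, there is no replicate test and no p-value.

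Members and lists were chosen with earlier results of these data known. Named were all HOX genes with at least 10 counts, up to 6 noncoding cluster genes with as many, up to 4 called flanking genes, and per list up to 4 called genes with the largest change. Egr2, Cdx1, Ezh2, Kmt2a, Evx1, Hotair, Fn1, Pou5f1, Sox2, Nanog, Sox1, Tbx6 and the overlapping genes were named after their values were seen. Near-identical or overlapping genes can share reads: Rn7s2 and the overlapping Gm47305 had 222986 and 222014 knockdown counts. The ratio and call script was tested on simulated counts with counting error only, for genes at 1 CPM or more over both libraries together. That test does not cover scarcer genes or differences between clones or cultures. Alternatives were total-count, DESeq2 1.42.0 and protein-coding scaling, thinning, other filters and folds, 2 added counts, and pools without single members. No table entry could be matched to linc1557, which is not analysed here, and a few genes are not reported here.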

Additional observations from a re-analysis of the deposited data

How the results depend on the processing

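No paired analysis was possible because there was 1 library per group, and for the same reason no replicate could be left out. Total-count scaling shifted every log2 ratio by -0.12, and of the HOX calls with at least 10 counts it changed those of Hoxb4 and Hoxd8, which were then called lower. No called ratio changed direction in any setting run. Of 265 comparisons on pools, lists and levels, 227 stayed within the counting interval or within 1.5 times the count. Without the member with the most counts, the ratio was 0.391 for Hoxa, 0.511 for Hoxb, 0.683 for Hoxc, 0.404 for groups 1 to 4, 0.188 for group 7, 0.240 for group 9 and 1.88 for group 13. Without genes that overlap others it was 0.914 for all HOX and 0.859 for Hoxb, and with counts per kilobase it was 0.867 for all HOX. Without groups 12 and 13, chosen after seeing the data, it was 0.559 for all HOX, 0.527 for Hoxc and 0.722 for groups 9 to 13. HOX counts per fibroblast marker count, at a ratio of 1.39, came to 1.68 without overlapping genes, 2.06 without Fn1, 1.86 by the median marker and 1.02 without groups 12 and 13 (1.52 without Fn1 as well). HOX genes called lower numbered 11 at 10 counts and with no filter, 0 at 5 CPM, where none entered, and 2 at 4-fold, and those called higher 0 at 5 CPM. At 5 CPM, genes called lower were 1 of 20 flanking, 0 of 6 TALE, 3 of 10 upstream regulators and 1 of 25 Polycomb and Trithorax. The share over all genes at that level was 6.31%. At 4-fold, genes called lower were 0 of 21 flanking, 0 of 11 TALE, 1 of 27 Polycomb and Trithorax and 4 of 29 fibroblast. The share over all genes was 2.45%. At 1.5-fold they were 5 of 11 TALE and 5 of 27 Polycomb and Trithorax, beside 2598 lower and 1817 higher of all 15850 genes. Genes called higher were 1 noncoding gene of 3 at 10 counts, of 9 with no filter and of 1 at 1.5-fold. At 1.5-fold 2 of 21 flanking genes and 2 of 15 upstream regulators were higher, and at 4-fold 0 flanking. Shares called higher over all genes were 5.01% at 10 counts, 4.73% with no filter and 0.959% at 4-fold. The changes with filter and fold follow from which genes enter and which threshold they meet, and for the pools the cause was not tested. Depth limits the single genes most: 27 of 39 stayed under 1 CPM.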
